A study of Mus musculus with 12 samples.

Results

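The transcripts of Tnfrsf1a and Tnfrsf1b were examined in TNF-exposed mouse glomeruli whose genes for one or both of these receptors had been targeted. Tnfrsf1a encodes TNF receptor 1 (TNFR1) and Tnfrsf1b encodes TNF receptor 2 (TNFR2). These are 2 of the 18193 genes that the arrays name, and they were read at every probe set annotated to either gene alone. This gave 3 of the 45101 probe sets of the table: 1417291_at for Tnfrsf1a, and 1418099_at and 1448951_at for Tnfrsf1b. The 12 arrays covered 4 genotypes with 3 arrays each. Tnfr1,2-/- mice carried both targeted alleles (Tnfrsf1atm1Mak and Tnfrsf1btm1Mwm), Tnfr1-/- mice the Tnfrsf1atm1Mak allele and Tnfr2-/- mice the Tnfrsf1btm1Mwm allele, and wildtype mice neither. The mutant strains are named B6.129, with a C57BL/6J background, and the wildtype controls came from crosses of the single mutants. All mice were males of 6 to 8 weeks, and all preparations of 5000 glomeruli were serum starved and then kept for 12 hours with murine TNF at 50 ng/ml. No array of unstimulated glomeruli was analysed here, so the values say nothing about induction by TNF itself.

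TNFR1 carries a death domain in its cytoplasmic part, recruits TRADD and can drive both inflammatory gene expression and cell death. TNFR2 lacks a death domain, binds TRAF proteins directly and responds more fully to membrane-bound than to soluble TNF. TNFR1 is made by nearly all cell types, whereas TNFR2 is more restricted and is known from endothelial cells and leukocytes.

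In the GRCm38 assembly Tnfrsf1a lies on chromosome 6, from 125349723 to 125362483, and Tnfrsf1b on chromosome 4, from 145212368 to 145246870. The 250 bases before each annotated start (RefSeq, GRCm38) are shown because the design asks whether loss of one receptor changes the transcript of the other. They read 5′ to 3′ on the gene's strand, at chr6:125349473-125349722 on the plus strand and at chr4:145246871-145247120 on the minus strand, and capitals mark every match found on either strand to the motifs searched.
Tnfrsf1a: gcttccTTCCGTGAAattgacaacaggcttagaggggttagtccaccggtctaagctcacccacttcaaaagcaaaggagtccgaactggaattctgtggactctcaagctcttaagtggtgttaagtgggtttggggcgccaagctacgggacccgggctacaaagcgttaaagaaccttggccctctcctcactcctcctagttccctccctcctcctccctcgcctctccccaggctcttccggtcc
Tnfrsf1b: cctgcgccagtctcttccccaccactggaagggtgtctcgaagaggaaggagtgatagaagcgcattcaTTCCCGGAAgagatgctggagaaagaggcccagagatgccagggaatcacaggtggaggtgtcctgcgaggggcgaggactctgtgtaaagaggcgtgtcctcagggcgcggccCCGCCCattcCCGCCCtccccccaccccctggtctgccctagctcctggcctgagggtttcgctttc

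Each window held 1 match to the STAT motif TTCNNNGAA, which begins 244 bases before the start of Tnfrsf1a and 181 bases before that of Tnfrsf1b. Of 32851 mouse promoter windows of this length, 7.02% held this motif. The Tnfrsf1b window also held 2 GC boxes (GGGCGG, found as CCGCCC), which begin 67 and 57 bases before the start, a motif held by 32.7% of windows. Neither window held a match to the κB consensus (held by 7.25% of windows), the AP-1 motif TGANTCA (6.75%), the CCAAT box (CCAAT, 33.8%) or the TATA box (TATAAA, 12.4%), and no match overlapped another. A match is a run of letters and not a measured binding site.

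The deposited values are on a log2 scale after the robust multichip average, so a difference of 1 is a doubling of signal. A linear model (limma) was fitted to all 45037 probe sets that are not controls, and a probe set was called at a Benjamini-Hochberg adjusted p under 0.05 with a change of at least 1.5-fold. With 3 arrays a genotype, the number of arrays limits the precision, and the p-values measure the spread between preparations, which the sources do not assign to separate animals.

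The Tnfrsf1a transcript was lower wherever its own locus was targeted. Its log2 values were 9.61, 9.14 and 9.11 on the Tnfr1,2-/- arrays, 9.80, 10.18 and 9.24 on the Tnfr1-/- arrays, 10.77, 10.82 and 10.60 on the Tnfr2-/- arrays, and 10.70, 10.73 and 10.23 on the wildtype arrays. All 6 arrays without an intact Tnfr1 locus therefore lay below all 6 with one. The effect of the Tnfr1 locus, over both states of Tnfr2, was a fall by 1.13 (standard error 0.17, limma adjusted p = 0.00533). Of all probe sets, 1.43% were called in that comparison, and in 1.23% the 6 arrays with the targeted locus lay wholly below the other 6. In the two-sided exact permutation test within each state of Tnfr2, p was 0.005, the smallest that 400 arrangements can give. The call held under every alternative that gave a test and without each array in turn, and the change lay between -1.24 and -0.96 throughout, the values within array sets included.

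By genotype, the Tnfrsf1a level ran in the order Tnfr2-/- (10.73 ± 0.12, SD, n = 3), wildtype (10.56 ± 0.28), Tnfr1-/- (9.74 ± 0.47) and Tnfr1,2-/- (9.29 ± 0.28). Tnfr1,2-/- glomeruli were lower than wildtype by a log2 change of -1.27 (95% interval -1.80 to -0.74, limma adjusted p = 0.0452), in a comparison that called 0.617% of all probe sets. This call did not hold without 9 of the 12 arrays taken 1 at a time, where the highest adjusted p was 0.234. It held only without Tnfr1,2-/- replicate 1 or without Tnfr1-/- replicate 2 or 3. Tnfr1-/- glomeruli differed from wildtype by -0.82 (-1.34 to -0.29, limma adjusted p = 0.357), which did not pass although the arrays did not overlap. Of all probe sets, 0.56% were called there and 9.79% had arrays that did not overlap. The neighbours in this order thus did not differ past the test, and the Tnfr1,2-/- and Tnfr1-/- arrays overlapped.

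**Figure D1:**
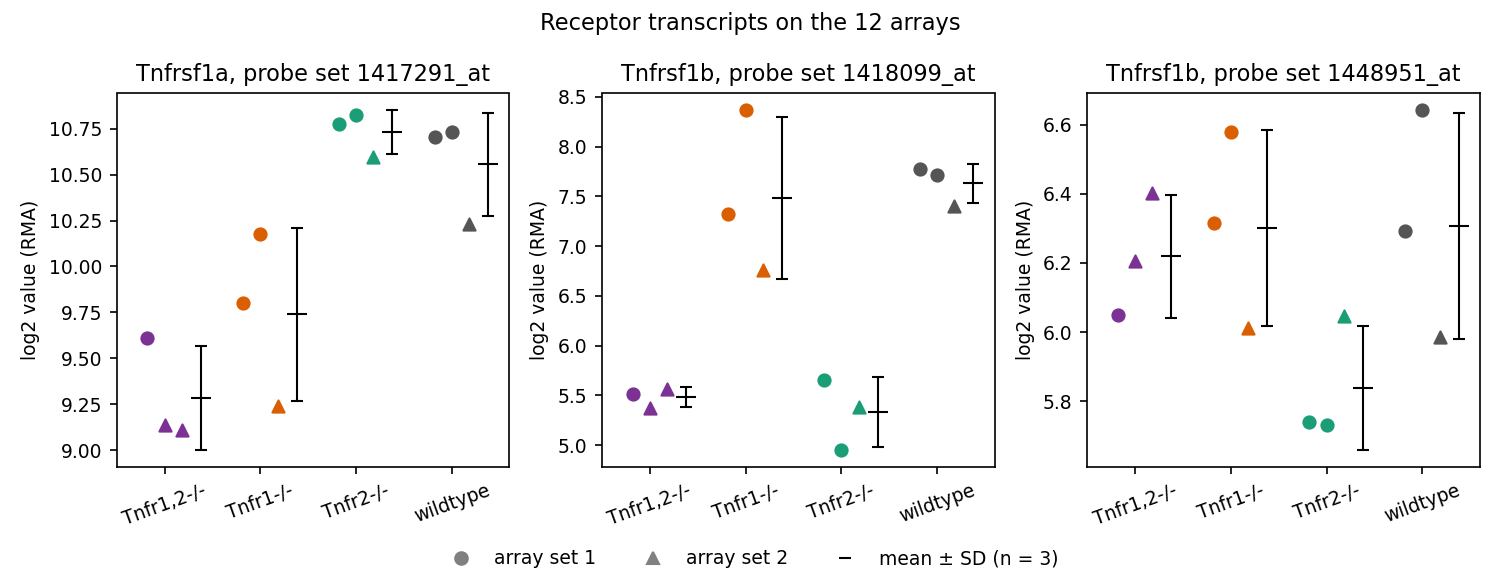
The 3 receptor probe sets by genotype (x axis), as log2 values (y axis) of 3 arrays per genotype with their mean and SD beside them. Circles are arrays of set 1 and triangles arrays of set 2, defined by the beta-actin control. Tnfrsf1a lies between 9.11 and 10.18 where its own locus was targeted and from 10.23 upward elsewhere, and probe set 1418099_at of Tnfrsf1b lies between 4.95 and 5.66 where its own locus was targeted and from 6.76 upward elsewhere.

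A large part of the Tnfrsf1a signal remained in the mutants. Relative to the wildtype mean, the signal was 41.5% in Tnfr1,2-/- glomeruli (95% interval 28.8% to 59.8%) and 56.8% in Tnfr1-/- glomeruli (39.4% to 81.9%). Single arrays ranged from 36.7% to 52.0% in Tnfr1,2-/- glomeruli and from 40.3% to 76.8% in Tnfr1-/- glomeruli. The remaining signal includes non-specific hybridization, and detection calls are not in the table. Neither the bases that each targeting removed nor the positions of the probes are given in the sources used here, so a remaining signal cannot be assigned to a remaining transcript, and a lost signal is a check of the labels in direction only.

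Tnfrsf1b fell at probe set 1418099_at wherever its own locus was targeted. Its log2 values there were 5.51, 5.37 and 5.57 on the Tnfr1,2-/- arrays, 5.66, 4.95 and 5.38 on the Tnfr2-/- arrays, 7.32, 8.36 and 6.76 on the Tnfr1-/- arrays, and 7.77, 7.71 and 7.41 on the wildtype arrays. The 6 arrays without an intact Tnfr2 locus were separated from the other 6 by more than 1 log2 unit. The effect of the Tnfr2 locus, over both states of Tnfr1, was a fall by 2.15 (standard error 0.24, limma adjusted p = 0.017; exact permutation p = 0.005, the smallest possible). This probe set ranked 6 by p-value among 45037, and 8 probe sets (0.0178%) were called in the comparison. In 0.0422% of all probe sets the 6 arrays with the targeted locus lay wholly below the other 6. The adjusted p rose past 0.05, to at most 0.0906, without 8 of the 12 arrays taken 1 at a time, while the change stayed between -2.33 and -1.93. The call held without Tnfr1-/- replicate 2 or 3, Tnfr2-/- replicate 1 or wildtype replicate 3.

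The loss of TNFR2 was set against its own background in each state of TNFR1. With TNFR1 intact, Tnfr2-/- glomeruli differed from wildtype by -2.30 at 1418099_at (95% interval -3.04 to -1.56), a change that ranked 5 by p-value but did not pass (limma adjusted p = 0.271). In this comparison 0.00222% of all probe sets were called. With array weights (adjusted p = 0.0188), by the statistic of SAM (q = 0) and without Tnfr1-/- replicate 2 (adjusted p = 0.0255) it passed. SAM had only 20 permutations of 3 against 3 arrays, so its q of 0 is a coarse estimate. Without TNFR1, Tnfr1,2-/- glomeruli differed from Tnfr1-/- glomeruli by -2.00 (-2.74 to -1.26), which ranked 8 and did not pass either (limma adjusted p = 0.574), in a comparison that also called 0.00222%. The arrays did not overlap in either comparison, which held for 4.94% of all probe sets with TNFR1 intact and for 4.79% without TNFR1. The change without TNFR1 minus that with TNFR1, the interaction of the loci, was 0.30 (95% interval -0.74 to 1.35, limma adjusted p = 1), an interval that includes differences of more than 2-fold. Within array set 2, described further on, the changes were -1.29 without TNFR1 and -2.02 with it, and within set 1 they were -2.33 and -2.44. Set 2 held 1 array each of Tnfr1-/-, Tnfr2-/- and wildtype glomeruli, so its values rest on single arrays. Without Tnfr1-/- replicate 2 the changes were -1.56 and -2.30.

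Against wildtype, Tnfr1,2-/- glomeruli, in which both loci were targeted, differed by -2.15 at this probe set (95% interval -2.88 to -1.41, limma adjusted p = 0.0147). Without Tnfr1,2-/- replicate 2 or 3 or wildtype replicate 1 or 2 this change missed the threshold, at adjusted p-values of 0.0547 to 0.0884. Signal at this probe set was 22.6% of wildtype in Tnfr1,2-/- glomeruli (95% interval 13.5% to 37.7%) and 20.3% in Tnfr2-/- glomeruli (12.2% to 33.9%). Single arrays lay between 15.6% and 25.5% of the wildtype mean over both genotypes.

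Probe set 1448951_at, annotated to the same gene and the same accession, did not show a fall of this size. Its wildtype mean of 6.31 lay not far above the array medians of the tested probe sets (5.58 to 5.64), so a large fall could hardly show there. Its log2 values were 6.05, 6.21 and 6.40 on the Tnfr1,2-/- arrays, 5.74, 5.73 and 6.05 on the Tnfr2-/- arrays, 6.31, 6.58 and 6.01 on the Tnfr1-/- arrays, and 6.29, 6.64 and 5.99 on the wildtype arrays. The values of all genotypes overlapped those of wildtype, and the highest Tnfr1,2-/- array exceeded wildtype replicates 1 and 3. The effect of the Tnfr2 locus was -0.28 (95% interval -0.58 to 0.03, limma adjusted p = 1). Signal was 94.1% of wildtype in Tnfr1,2-/- glomeruli (95% interval 69.5% to 127%) and 72.3% in Tnfr2-/- glomeruli (53.4% to 98.0%).

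The probe sets of Tnfrsf1b were then compared by their changes, array by array, since levels of different probes cannot be compared. The value of 1418099_at minus that of 1448951_at was -0.73 ± 0.17 in Tnfr1,2-/- (SD, n = 3) and -0.51 ± 0.37 in Tnfr2-/- glomeruli, against 1.18 ± 0.54 in Tnfr1-/- and 1.32 ± 0.22 in wildtype glomeruli. The change at 1418099_at was thus larger by -1.87 on the log2 scale (two-sided exact permutation p = 0.005, the smallest that 400 arrangements can give). It stayed between -1.98 and -1.72 without each array in turn. The mean of both probe sets changed by -1.21 with the Tnfr2 locus and did not pass the test (limma adjusted p = 0.0837), so that the result for Tnfrsf1b rests on which probe set is read.

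**Figure D2:**
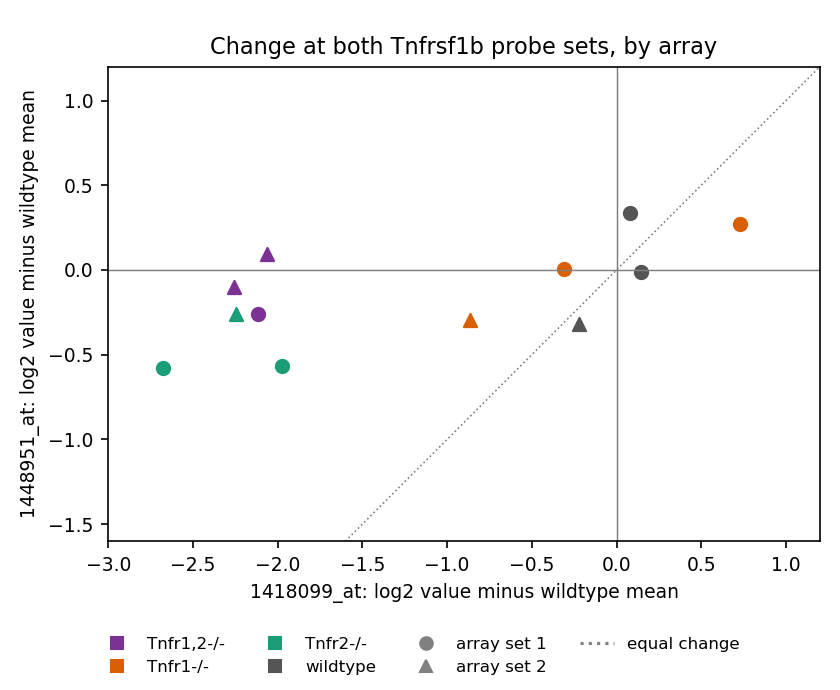
Log2 value minus the wildtype mean at probe set 1418099_at (x axis) and at 1448951_at (y axis) on each of the 12 arrays, coloured by genotype. On the dotted line both probe sets would change equally. The 6 arrays with a targeted Tnfr2 locus lie far to the left of it, since the first probe set fell by 2.15 with the Tnfr2 locus while the second changed by -0.28.

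Loss of TNFR2 did not detectably change the transcript of TNFR1. Tnfrsf1a averaged 10.73 in Tnfr2-/- and 10.56 in wildtype glomeruli, a difference of 0.17 (95% interval -0.35 to 0.70, limma adjusted p = 1), and the arrays overlapped. On the background of TNFR1 loss, Tnfr1,2-/- glomeruli averaged 9.29 and Tnfr1-/- glomeruli 9.74, a difference of -0.45 (-0.98 to 0.07, limma adjusted p = 0.98). Over both backgrounds the effect of the Tnfr2 locus on Tnfrsf1a was -0.14 (-0.51 to 0.23, exact permutation p = 0.46). Changes beyond a fall to 70.1% or a rise to 118% of the level lie outside this interval. This average includes the genotypes with a targeted Tnfrsf1a locus. With that locus intact, in Tnfr2-/- against wildtype glomeruli, the interval allows 78.3% to 163%.

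Loss of TNFR1 likewise left the Tnfrsf1b values without a detectable change. At 1418099_at the Tnfr1-/- mean was 7.48 ± 0.81 and the wildtype mean 7.63 ± 0.20 (SD, n = 3 each), a difference of -0.15 (95% interval -0.89 to 0.59, limma adjusted p = 1). On the background of TNFR2 loss the means were 5.48 in Tnfr1,2-/- and 5.33 in Tnfr2-/- glomeruli, a difference of 0.15 (-0.59 to 0.89, limma adjusted p = 0.942). The effect of the Tnfr1 locus over both backgrounds was 0.00 (-0.52 to 0.52, exact permutation p = 0.995), which allows levels between 69.7% and 144% of those with an intact locus. This average includes the genotypes with a targeted Tnfrsf1b locus, where the signal was already low and a response could hardly show. With that locus intact, in Tnfr1-/- against wildtype glomeruli, the interval allows 54.1% to 150%. At 1448951_at that effect was 0.19 (-0.12 to 0.50, limma adjusted p = 0.822).

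**Figure D3:**
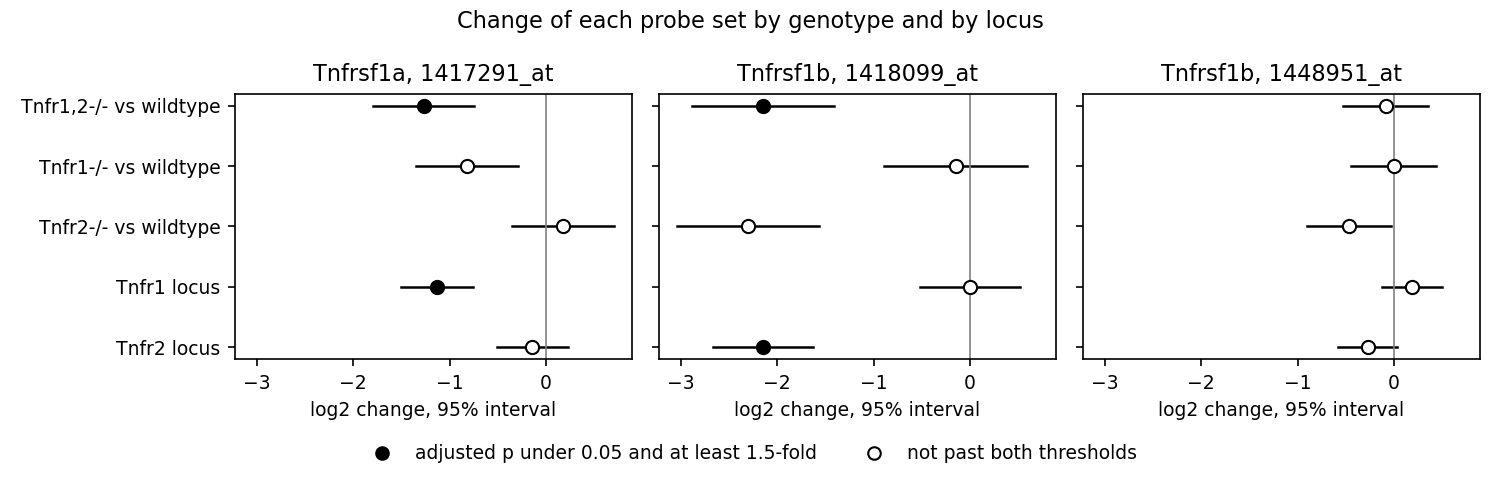
Log2 change with its 95% interval (x axis) for each receptor probe set, in each mutant against wildtype and for the effect of each locus over both states of the other (y axis). Filled points passed an adjusted p under 0.05 and 1.5-fold. Own-locus changes of -1.13 for Tnfrsf1a and -2.15 for 1418099_at stand apart from 0, and the intervals of all changes with the other receptor's locus include 0.

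The Tnfr1-/- arrays spread widely at 1418099_at, over 1.60 log2 units, against 0.37 in wildtype. Replicate 2 was the highest and replicate 3 the lowest of the Tnfr1-/- arrays at all 3 receptor probe sets. Relative to the wildtype mean, 1418099_at had 166% of the signal on replicate 2, 80.6% on replicate 1 and 54.8% on replicate 3. Replicate 2 also had the lowest mean log2 value of 4 podocyte markers, 10.14 against 11.54 on replicate 1 and 11.42 on replicate 3. It had the highest mean of 6 leukocyte markers, 7.73 against 7.14 and 6.99, and of 6 endothelial markers, 10.08 against 9.90 and 9.57. The same held for 5 mesangial markers, 11.20 against 11.02 and 10.57, while 6 tubular markers averaged 6.68 against 7.27 and 6.09. Among wildtype arrays, replicate 2 also had the highest leukocyte mean, 7.54 against 6.95 and 6.85. Its 1418099_at value of 7.71 lay below the 7.77 of wildtype replicate 1. The part of cell composition in the Tnfrsf1b values was not tested, and in whole glomeruli fewer cells of a type and less RNA per cell cannot be told apart.

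Markers of the glomerulus were present in all genotypes. The mean log2 value of the podocyte markers lay between 10.14 and 11.58, of the endothelial markers between 8.91 and 10.08 and of 5 mesangial markers between 10.36 and 11.20 on the 12 arrays. That of 6 tubular markers lay between 5.59 and 7.27. Of the listed markers, 4 of 6 for podocytes and 6 of 8 for leukocytes were measured. The podocyte mean ranged over 11.22 to 11.58 in Tnfr1,2-/-, 10.14 to 11.54 in Tnfr1-/- and 10.50 to 11.13 in Tnfr2-/- glomeruli, against 10.69 to 11.12 in wildtype. The endothelial mean was higher on every mutant array than its highest wildtype value, except on Tnfr1,2-/- replicate 3, at 9.22 to 9.82 in Tnfr1,2-/-, 9.57 to 10.08 in Tnfr1-/- and 9.50 to 9.79 in Tnfr2-/- glomeruli, against 8.91 to 9.31 in wildtype. None of these 6 markers was called by limma in the comparisons with wildtype. There, 3 had an unadjusted limma p under 0.05 with both loci targeted, 4 for Tnfr1-/- and 3 for Tnfr2-/-. Among all 18193 genes, each at 1 probe set, 1531, 1161 and 130 reached this p, in the same order. The Tnfr2-/- comparison called 0 of these genes, so the missing call there does not show equal marker levels. The leukocyte mean ranged over 6.79 to 7.17 in Tnfr1,2-/-, 6.99 to 7.73 in Tnfr1-/- and 7.08 to 7.63 in Tnfr2-/- glomeruli, against 6.85 to 7.54 in wildtype, so that every mutant overlapped wildtype.

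The arrays also differed in how far the 3′ control probe set of beta-actin exceeded its 5′ probe set, which reflects the quality of RNA and labelling. This log2 excess lay between 0.667 and 1.005 on 7 arrays (set 1) and between 1.82 and 2.30 on 5 arrays (set 2), which were Tnfr1,2-/- replicates 2 and 3 and replicate 3 of each other genotype. In Tnfr1-/-, Tnfr2-/- and wildtype glomeruli the array of set 2 had the lowest Tnfrsf1a value of its genotype, and in Tnfr1,2-/- glomeruli both arrays of set 2 lay below that of set 1. Within set 1 Tnfrsf1a differed from wildtype by -1.11 in Tnfr1,2-/- and by -0.73 in Tnfr1-/- glomeruli. Within set 2 it differed by -1.11 and -0.99, with 1 wildtype array there. With the array set as a block, the change in Tnfr1-/- glomeruli was again -0.82 and passed the test (limma adjusted p = 0.0143), and the effect of the Tnfr1 locus was -1.05 (adjusted p = 0.000125).

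At 1418099_at the differences from wildtype were -2.23 in Tnfr1,2-/- and -2.44 in Tnfr2-/- glomeruli within set 1, and -1.94 and -2.02 within set 2. The effect of the Tnfr2 locus with the set as a block was -2.09 (limma adjusted p = 0.00627). The other probe set of Tnfrsf1b changed less. At 1448951_at the effect of the Tnfr2 locus was -0.56 within set 1 and 0.18 within set 2. These values rest on single arrays: set 1 held 1 Tnfr1,2-/- array, and set 2 held 1 array of each other genotype. The difference between the sets was not tested. With the set as a block this effect was -0.26, and without each array in turn it lay between -0.36 and -0.19.

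**Figure D4:**
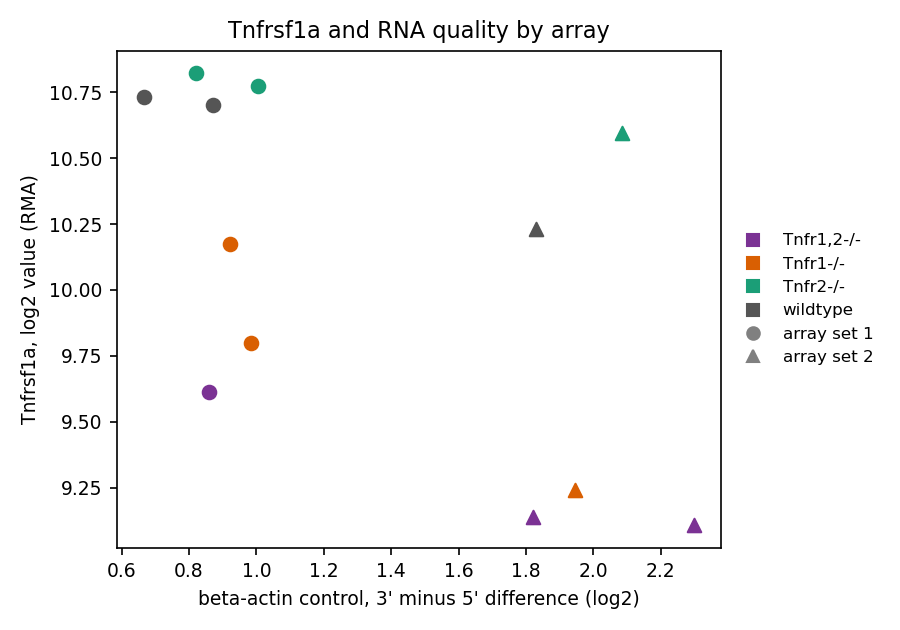
Log2 value of Tnfrsf1a (y axis) against the log2 excess of the 3′ over the 5′ probe set of beta-actin (x axis) on the 12 arrays, coloured by genotype. Circles are arrays of set 1 and triangles arrays of set 2. In each set the arrays with a targeted Tnfr1 locus lie lowest, at 9.61 to 10.18 in set 1 and 9.11 to 9.24 in set 2.

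The genes with the pattern most like Tnfrsf1a over the 12 arrays, of 18192 compared by Pearson's r, were Adamts7 (0.989), Fam20c (0.983), Csf1 (0.981), Slc15a3 (0.980) and Irf1 (0.979). Adamts7 encodes a secreted metalloprotease, Fam20c a kinase of secreted proteins, Csf1 the growth factor of macrophages, Slc15a3 a peptide transporter and Irf1 an interferon-regulated transcription factor. Irf1 averaged a log2 value of 9.46 in Tnfr1,2-/- and 9.81 in Tnfr1-/- against 11.34 in Tnfr2-/- and 11.22 in wildtype glomeruli. For these 5 genes r was at least 0.954 over the 7 arrays of set 1 and at least 0.974 over the 5 of set 2. These points share genotype, array set and normalization, so the correlations are a description.

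For 1418099_at of Tnfrsf1b the likeness was lower. Rab6b, a GTPase of Golgi traffic, came first (r = 0.928), with 7.87 in Tnfr1,2-/- and 8.09 in Tnfr2-/- against 9.96 in Tnfr1-/- and 9.45 in wildtype glomeruli. It was followed by Scube2 (0.852), the zinc finger pseudogene Znf41-ps (0.846), 1700030J22Rik (0.844) and Rdh7 (0.833). Scube2, 1700030J22Rik and Rdh7 varied little between genotypes, with means from 2.87 to 3.22, 4.32 to 4.55 and 3.16 to 3.39, under the array medians of the tested probe sets (5.58 to 5.64).

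Other genes of TNF receptor signalling were counted from lists of 68 genes, 64 of which had a probe set of their own, each read at its probe set of highest mean. With the Tnfr1 locus 11 fell and 2 rose, where 1.41% of all genes fell and 0.775% rose. The lists were chosen with earlier results of these data known, so these counts are a description. Traf1, an adaptor of the TNFR2 complex, fell by 2.40 (standard error 0.13, limma adjusted p = 5.05e-06). Bmx, a tyrosine kinase reported to act below TNFR2, rose by 1.99 (adjusted p = 1.25e-05). In the list of the receptor complex Birc2 and Birc3, the ubiquitin ligases cIAP1 and cIAP2, changed by -0.93 and -1.21, and 4 of 18 members were called in all. With the Tnfr2 locus 0 of the 64 were called by limma, where 0.0275% of all genes were. An unadjusted p under 0.05 was found for 0 of the 64 and for 177 of all 18193 genes.

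Of 8 genes for ligands of the receptors and for the shedding of receptors and TNF, 3 were called with the Tnfr1 locus. Of all genes 2.19% were called there, 1.41% as lower and 0.775% as higher, and these shares stand beside each list below. Adam17, the protease that sheds both receptors and TNF, fell by 0.93 with the Tnfr1 locus (limma adjusted p = 0.00029), and Tnf itself fell by 0.98 (0.0149). Timp3, an inhibitor of that protease, rose by 0.85 (0.0099). The other 5 were not called. Of 8 negative regulators 4 fell, with log2 changes of -1.896 for Nfkbie, -1.69 for Tnfaip3, which encodes A20, -1.65 for its partner Tnip1 and -0.65 for Nfkbia. Of 5 death signalling genes 0 were called by limma and 1 had an unadjusted p under 0.05, as had 2006 of all 18193 genes. Of 25 other receptors of the superfamily 2 fell, the death receptor gene Fas by a log2 change of -1.835 and Cd40 by one of -0.95. Median log2 changes were -0.16 for the 64 genes and -0.74 for the negative regulators, beside 0.00 for all genes.

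Genes next to the targeted loci bear on what else the alleles carry, since B6.129 strains keep DNA of the 129 donor around a targeted gene. Only genes with a probe set of their own were taken, 5 on each side, so other genes nearby were not read. Those taken reached as far as 1274 kb from Tnfrsf1a and 1272 kb from Tnfrsf1b. Of the 10 nearest such genes to Tnfrsf1a, 1 was called with the Tnfr1 locus, where 2.19% of all genes were. This was Tapbpl, which encodes a peptide editor of MHC class I, 118 kb away, and its log2 change was -1.498 (limma adjusted p = 0.000754). Plekhg6 and Scnn1a, 0.168 kb and 4.78 kb away, changed by 0.04 and 0.26 (adjusted p = 0.959 and 0.581). The related receptor gene Ltbr, 35.8 kb away, changed by -0.57 (adjusted p = 0.878). Of the 10 nearest such genes to Tnfrsf1b, 1 was called with the Tnfr2 locus, where 0.0275% of all genes were. This was Znf41-ps, 543 kb away, which fell by 1.55 (limma adjusted p = 0.00829). Vps13d and Tnfrsf8, which flank Tnfrsf1b at 17.3 kb and 20.3 kb, changed by -0.16 and 0.02 (adjusted p = 1 for both). The part of donor DNA in the receptor values was not tested.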

How the data were processed

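RNA of TNF-exposed glomeruli was hybridized to Affymetrix whole-genome mouse arrays, 3 for each of 4 genotypes. The authors scanned them with GeneChip Operating Software 1.0 and normalized all 12 together by the robust multichip average (RMA Express 1.0 beta), so the deposited values are on a log2 scale. They lay between 1.93 and 14.1, with array medians over all probe sets of 5.59 to 5.64, and were used as deposited. No 2 arrays held identical values. Probe sets were named by the platform annotation, and 932 with several symbols and 9160 with none were not used for genes. The 64 control probe sets were left out of the tests.

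The models used R 4.3.3 and its package limma 3.58.1, with 8 residual degrees of freedom and moderated variances, and p-values were adjusted over all probe sets of a comparison. Locus effects average both states of the other locus. In simulated data with independent noise and falls placed on the Tnfr1 locus only, the limma fits returned the set changes on average. The simulation held no array sets, no shared replicates and no change of the Tnfr2 locus, so it does not bear on these. Named genes followed a rule: both receptors, the 5 genes most correlated with each, and called members of 5 lists (at most 4 a list). The rule also took the 5 nearest genes with a probe set of their own on each side. Genes whose values illustrate these lists or flanks without a call were named after their values were seen. The members and lists were chosen with earlier results of these data known. The permutation test of the locus effects was added after the values were seen.
Alternatives were other normalizations, filters, array weights, array set and replicate blocks, the SAM statistic and leaving out each array. Array sets were split at the largest gap of the beta-actin difference. No genome sequence was used beyond the RefSeq promoter table.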

Additional observations from a re-analysis of the deposited data

Results flagged for a closer look

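The mean change of Tnfrsf1a with TNFR2 loss was 0.17 with TNFR1 and -0.45 without it. Neither change passed the test, and the arrays overlapped in both comparisons. All 3 Tnfr2-/- arrays lay above the wildtype mean, and all 3 Tnfr1,2-/- arrays lay below the Tnfr1-/- mean. The changes differed by 0.63 on the log2 scale. The test of this difference, the interaction of the loci, gave -0.63 (95% interval -1.37 to 0.12) and did not pass (limma adjusted p = 1). With the array set as a block, the change without TNFR1 was -0.29 and the interaction -0.47. Within set 1 the change without TNFR1 was -0.37 and within set 2 it was -0.12.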

How the results depend on the processing

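The fall of Tnfrsf1a with the Tnfr1 locus kept its direction and its call under every alternative with a test, and that of 1418099_at with the Tnfr2 locus kept its direction under all. With the mean of both Tnfrsf1b probe sets, the change in Tnfr1,2-/- glomeruli was -1.12 (limma adjusted p = 0.0551) and that with the Tnfr2 locus -1.21, both past the threshold no longer. The Tnfrsf1a change in Tnfr1,2-/- glomeruli was -1.27 and missed the threshold with only both genotypes compared (adjusted p = 0.116) and with median centring (0.0505). The Tnfrsf1a change in Tnfr1-/- glomeruli passed with the array set as a block (-0.82) and with the beta-actin difference as a covariate (-0.75, adjusted p = 0.0328). The 1418099_at change in Tnfr2-/- glomeruli passed with array weights (-2.34) and with SAM (-2.30). Values near 0 turned in sign. The effect of the Tnfr1 locus at 1418099_at was -0.089 with array weights and -0.00079 with median centring, and the Tnfr1-/- change at 1448951_at was 0.00318 with the beta-actin covariate. The cause of these shifts was not tested.

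Within array set 1 the changes at 1448951_at were -0.42 in Tnfr1,2-/- glomeruli, -0.73 in Tnfr2-/- glomeruli and -0.56 with the Tnfr2 locus, and within set 2 they were 0.32, 0.0599 and 0.18. At 1418099_at, set 2 gave -0.64 in Tnfr1-/- glomeruli and -1.66 with the Tnfr2 locus. The signal left at 1418099_at in Tnfr1,2-/- glomeruli was 24.5% with the array set as a block and 20.9% to 23.7% with each array left out.

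With each array left out in turn, the Tnfrsf1a change lay between -1.43 and -1.18 in Tnfr1,2-/- glomeruli. At 1418099_at it lay between -2.26 and -2.08 in Tnfr1,2-/-, -2.46 and -2.11 in Tnfr2-/- and -0.59 and 0.21 in Tnfr1-/- glomeruli. It lay between -0.037 and 0.32 in Tnfr1,2-/- against Tnfr2-/- glomeruli, and between -2.33 and -1.93 with the Tnfr2 locus, -0.22 and 0.18 with the Tnfr1 locus and -0.058 and 0.74 for the interaction. At 1448951_at it lay between -0.25 and 0.079 in Tnfr1,2-/- and -0.17 and 0.16 in Tnfr1-/- against wildtype, and between -0.23 and 0.055 in Tnfr1,2-/- against Tnfr1-/- glomeruli.

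Samples with the same replicate number deviated together in 15 of 18 pairs of arrays (correlations over 0.1, up to 0.79). The 3 pairs of Tnfr1,2-/- replicate 2 with replicate 2 of the other genotypes ran the other way (-0.31 to -0.17). In these pairs Tnfr1,2-/- replicate 2 was of array set 2 and its partner of set 1, while the arrays of every other pair shared a set. The part of the array set in these correlations was not tested. Since a pairing was taken only where every pair was over 0.1, and no source ties a number to a shared animal or day, the fits without the block were kept. With the replicate number as a block, 767 probe sets in place of 278 were called in Tnfr1,2-/-, 498 in place of 252 in Tnfr1-/- and 2 in place of 1 in Tnfr2-/- glomeruli against wildtype, and 1150 in place of 645 with the Tnfr1 locus and 13 in place of 8 with the Tnfr2 locus. With the block, Tnfrsf1a changed by -1.13 with the Tnfr1 locus (adjusted p = 0.000575) and 1418099_at by -2.15 with the Tnfr2 locus (0.00993), and no receptor call against wildtype or for a locus changed. With the array set as a block, 492, 546 and 3 probe sets were called in Tnfr1,2-/-, Tnfr1-/- and Tnfr2-/- glomeruli and 1007 with the Tnfr1 locus.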
